A study of Mus musculus with 24 samples.

Results

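The fatty acid elongases and desaturases are the enzymes that lengthen fatty acids and put double bonds into them. The 10 genes described here were Elovl1, Elovl2, Elovl3, Elovl5, Elovl6, Fads1, Fads2, Fads3, Scd1 and Scd2. They were chosen by name, among 37074 gene names on the array, and every probe carrying one of these names was read. This gave 22 of 56605 probes. Of the 22, 21 passed the filter on dim probes, and every gene kept at least 1 probe. The Elovl1 probe left out was well above background on 0 of 24 arrays.

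Dietary linoleic and alpha-linolenic acid become arachidonic, eicosapentaenoic and docosahexaenoic acid in the liver through alternating desaturation and elongation. FADS2 makes the first double bond of this route and FADS1 a later one, while ELOVL5 and ELOVL2 lengthen the chains in between. Saturated chains made by fatty acid synthase follow another branch, in which ELOVL6 turns palmitate into stearate, SCD1 and SCD2 make oleate and palmitoleate, and ELOVL1 and ELOVL3 build very long chains. An ELOVL enzyme performs only the condensing step of elongation; HSD17B12, a HACD dehydratase and TECR complete each cycle. In hepatocytes several of the members are known targets of SREBP-1c, a transcription factor that responds to insulin. Several are known targets of PPARα, a nuclear receptor that binds fatty acids.

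Livers came from 24 male C57Bl/6J mice in 4 groups of 6, with 1 single-colour array of Cy3-labelled RNA per mouse. The series describes the mice as expressing PPARα in hepatocytes or not, and the labels call the genotypes LWT and LKO; the promoter driving the deletion, the deleted part of Ppara and the age of the mice are not given in the labels. Mice of each genotype received by gavage either CL316243 at 3 mg/kg, in groups labelled Beta3, or the vehicle alone, 0.5% carboxymethyl cellulose. CL316243 is an agonist of the beta3 adrenergic receptor, best known for starting lipolysis in adipocytes. All mice ate a standard rodent diet freely, were dosed at Zeitgeber time (ZT) 10 h in a cycle of 12 h of light and 12 h of darkness, and were killed at ZT 16 h. The comparisons ask what the agonist did to these genes in each genotype, whether its effect differed between genotypes, and how the genotypes differed under each treatment.

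Levels are log2 signals relative to the 75th percentile of the same array, so 0 is the level of that percentile and a difference of 1 is a doubling. They compare mice at 1 probe, and say nothing of one gene against another. Each array measured 26985 to 34202 of the 56605 probes above its background. The brightest Ppara probe stood at 5.68 ± 0.16 (SD, n = 6) in vehicle-treated LWT mice, 6.23 ± 0.27 with CL316243, 5.01 ± 0.15 in vehicle-treated LKO mice and 4.32 ± 0.64 in LKO mice given CL316243. Ppara was lower in LKO than in LWT mice under CL316243 (-1.91, adjusted p = 3.60e-07 by limma), and -0.68 apart under vehicle (adjusted p = 0.158); as the deleted part is not named, it is not known whether this probe lies in it. Hepatocyte markers were measured in all groups (7 of 7; group medians of their summed level 11.34 to 11.43). The array of LKO CL316243 mouse 3 stood apart: its genes lay a median of 0.269 from their group's medians, against 0.0739 to 0.173 on the other 23 arrays. That liver also had the highest summed neutrophil (5.44), adipocyte (0.70), cholangiocyte (3.82) and hepatocyte markers (11.53) of its group. Leaving it out, 6, 3, 0, 2 and 5 members passed the test in the 5 comparisons, as many as with it. The background did move. Of 21331 genes, 8902, 7835, 1535, 302 and 3958 passed without that array, against 8180, 8596, 1153, 251 and 3393 with it. Results of members that rest on it are given with and without it. For Ppara, the genes of the other lists and the marker genes, values and counts are given only with it. Whether those rest on it is not shown.

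CL316243 changed several of the 10 genes and in opposite directions. In LWT livers, Elovl3 and Elovl5 rose 3.34-fold and 2.64-fold and Scd2 fell to 0.414 of its vehicle level. In LKO livers Elovl5 again rose, 2.05-fold, and Scd2 fell to 0.430 of its vehicle level, while Elovl3 was 1.04 times its vehicle level, which did not pass the test. Fads2 had the larger of the 2 genotype differences called under vehicle and kept it under CL316243: its LKO level was 0.647 of the LWT level with vehicle and 0.495 of it with CL316243. Scd1, the main stearoyl-CoA desaturase of liver, passed no test in any of the 5 comparisons.

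By limma with Benjamini-Hochberg adjustment over 21331 genes (called at an adjusted p under 0.05), 6 of 10 members were called for CL316243 in LWT mice, 3 higher and 3 lower. The treatment moved much of the transcriptome: 38.3% of all genes tested were called, 18.9% higher and 19.4% lower. In LKO mice 3 of 10 were called, 1 higher and 2 lower, against 40.3% of all genes, 20.9% higher and 19.4% lower. The median change of the 10 genes was -0.06 in LWT and -0.05 in LKO mice, beside 0.01 and 0.03 over all genes. For the difference between the genotypes' responses, limma called 0 of 10 members against 5.41% of all genes, 2.17% higher and 3.24% lower in LKO. Before adjustment, 4 of 10 had a limma p under 0.05 (Elovl3, Elovl6, Fads1 and Fads2). The share of all genes under that looser limit was not counted, and 5.41% is not its background. The 4 are therefore no sign of a response particular to the members. In the direct comparison of genotypes, 2 of 10 members were called under vehicle (1.18% of all genes) and 5 of 10 under CL316243 (15.9%). All 7 of these calls were lower in LKO. Over all genes, 0.398% were called higher and 0.778% lower under vehicle, and 7.74% and 8.17% under CL316243. Where single probes are called below, it is over 32037 kept probes, of which 37.6% were called for CL316243 in LWT and 41.0% in LKO mice, 5.96% for the difference between these responses, and 1.11% and 15.4% for genotype under vehicle and CL316243. The genotype comparison under CL316243 shares its mice with the treatment comparisons, so these counts are not independent of each other.

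**Figure D1:**
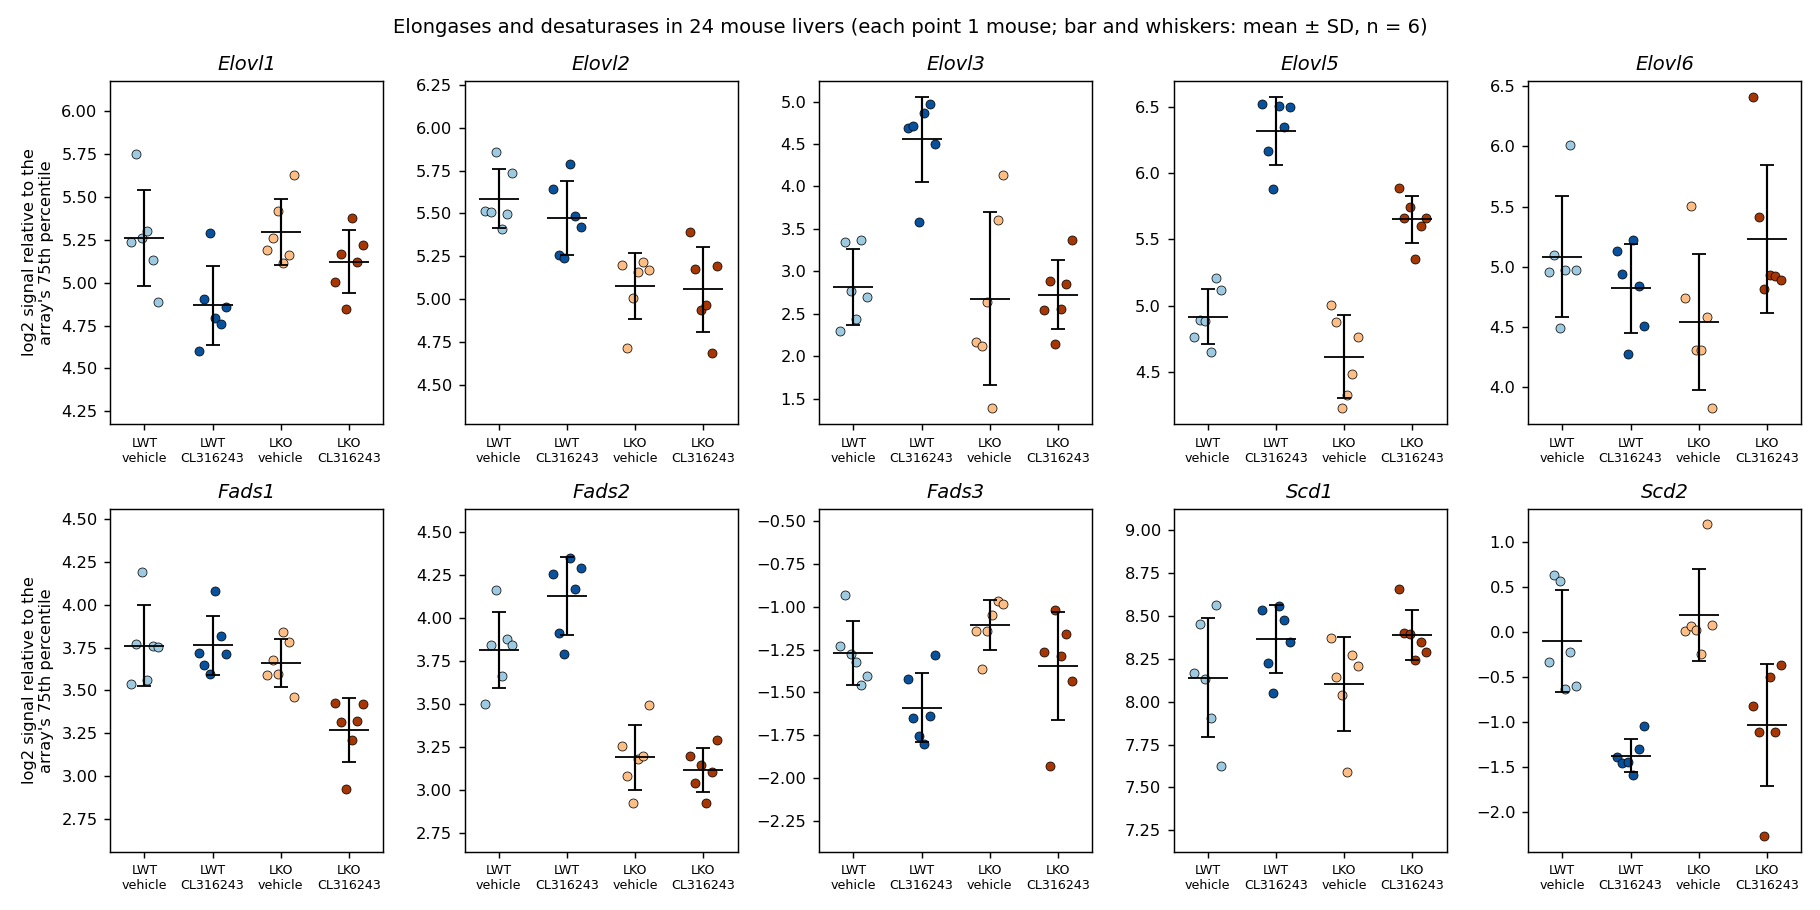
Level of each of the 10 genes (log2 signal relative to the 75th percentile of the array, vertical axis) in every mouse of the 4 groups; each point is 1 mouse, and the bar and whiskers give the mean and SD of 6 mice. Vertical scales differ between panels; Elovl5 is higher and Scd2 lower with CL316243 in both genotypes without overlap, Elovl3 is higher with CL316243 in LWT mice without overlap, and Fads2 is lower in LKO under both treatments.

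Among the enzymes of the polyunsaturated route, Elovl5 had the largest change with CL316243 at the brightest probes. ELOVL5 lengthens the products of FADS2. Its brightest probe (A_51_P505493) lies at chr9:77832205-77832264 on the + strand of build mm9, from base 2659 of the RefSeq transcript. A different probe, A_55_P2522620, starts at base 596 of a predicted RefSeq transcript and maps to chr9:77827724-77827983, a stretch of 260 bases for a probe of 60. The 2 are shown because both rose in both genotypes, and because the difference between the genotypes' rises was called at only 1 of them. The first 30 bases of the brightest probe and the whole of the other, 5′ to 3′ with nothing marked by capitals, are:
Elovl5 A_51_P505493: ctcaatacaaaaattataacatttgatagt
Elovl5 A_55_P2522620: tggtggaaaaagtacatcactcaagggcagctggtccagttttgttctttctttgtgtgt
At the brightest probe, the lowest, median and highest of 6 mice were 4.65, 4.89 and 5.21 in LWT with vehicle and 5.88, 6.42 and 6.52 with CL316243. The LKO mice spanned 4.23, 4.63 and 5.0 with vehicle and 5.36, 5.66 and 5.89 with CL316243. Every treated mouse stood above every vehicle mouse of its genotype, and the treated LKO mice reached only the bottom of the treated LWT range. The rise was 1.40 ± 0.14 (SE; adjusted p = 7.69e-08) in LWT and 1.04 ± 0.14 (adjusted p = 6.31e-06) in LKO mice. Within each of the 3 slides, which held 2 mice per group, it was 1.2 to 1.51 in LWT and 0.84 to 1.2 in LKO.

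The difference between the 2 responses of Elovl5 was negative at all 3 probes and called at 1 of them. At the brightest, the LKO response minus the LWT response was -0.37 ± 0.20 (adjusted p = 0.340). At A_55_P2522620 the median moved from -2.09 to -0.54 in LWT mice and from -2.07 to -1.37 in LKO mice. The rises there were 1.54 (adjusted p = 3.94e-09) and 0.81 (adjusted p = 2.87e-05), and their difference of -0.73 was called (adjusted p = 0.0138). This call held in all 24 fits that left out 1 mouse. A dim probe, A_55_P2718343, was well above background on 3 to 5 of 6 arrays per group. It rose by 1.16 in LWT mice (adjusted p = 0.0280) and had a change of 0.29 in LKO mice (adjusted p = 0.602). The difference between these responses was -0.87 (adjusted p = 0.443). The LWT call of the dim probe was lost without LWT vehicle mouse 1, 3, 4 or 5 or LWT CL316243 mouse 2, 4 or 6 (adjusted p 0.0505 to 0.0701). Under CL316243 the LKO level was lower at all 3 probes: -0.67 at the brightest (adjusted p = 0.00143), -0.77 at the second (adjusted p = 1.13e-04) and -1.33 at the dim one. The dim probe's adjusted p was 0.0284. It was 0.0530 to 0.0670 without LWT CL316243 mouse 2, 4 or 6 or LKO CL316243 mouse 2, 3 or 5. Under vehicle the genotypes differed by -0.30 at the brightest probe, which was not called (adjusted p = 0.569).

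Fads2 encodes the desaturase that opens the polyunsaturated route. Its 5 probes are spread along the gene on the - strand of chromosome 19 in mm9, and 3 are shown because they reported the treatment effect in LKO mice differently. The brightest, A_51_P364609, starts at base 1352 of the RefSeq transcript and spans chr19:10138750-10139180. A_66_P130115 starts at base 595 of the same transcript, at chr19:10163229-10163288. A_55_P2729398 was designed on a cDNA clone and lies at chr19:10161035-10161094. The first 2 are printed whole and the clone's probe by its first 30 bases, with no capitals:
Fads2 A_51_P364609: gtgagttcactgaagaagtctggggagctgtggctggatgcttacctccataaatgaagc
Fads2 A_66_P130115: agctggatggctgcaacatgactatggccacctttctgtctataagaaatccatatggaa
Fads2 A_55_P2729398: cagccttgacatatcatttcttaaatgagc
At the brightest probe the LWT mice had a lowest, median and highest level of 3.5, 3.84 and 4.16 with vehicle and 3.79, 4.21 and 4.35 with CL316243. The LKO mice had 2.92, 3.19 and 3.49 with vehicle and 2.92, 3.12 and 3.29 with CL316243. The genotypes did not overlap under either treatment, although under vehicle the highest LKO and lowest LWT mouse nearly met. Groups without overlap made up 1.80% of all genes in the vehicle comparison and 6.57% in the CL316243 comparison. Fads2 was lower in LKO mice by -0.63 ± 0.11 under vehicle (adjusted p = 0.00286) and by -1.01 ± 0.11 under CL316243 (adjusted p = 6.39e-07). Within slides these differences were -0.80 to -0.50 and -1.23 to -0.61.

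The LKO deficit of Fads2 under CL316243 was called at all 5 probes, from -1.01 to -2.80. Under vehicle all 5 were lower as well and 2 were called, the brightest and A_65_P20641 (-0.64, adjusted p = 0.0185; not called without LKO vehicle mouse 2 or 3, adjusted p 0.0504 and 0.0557). For the response to CL316243 the brightest probe gave 0.31 ± 0.11 in LWT (adjusted p = 0.0312) and -0.07 ± 0.11 in LKO mice (adjusted p = 0.636). The LWT rise was called in 8 of 13 alternative analyses and lost without any of 6 mice, namely LWT vehicle mice 1 and 4 and LWT CL316243 mice 1, 4, 5 and 6 (adjusted p 0.0542 to 0.0887). With the mean of the gene's probes the vehicle difference was -0.58 and not called (adjusted p = 0.15). A pair of clone probes near the brightest one gave LWT rises of 0.48 (A_65_P20641, adjusted p = 0.00926) and 0.47 (A_55_P2739989, adjusted p = 0.0188). The second of these was not called without LWT vehicle mouse 1 (0.40, adjusted p = 0.0517).

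The 2 Fads2 probes nearer the start of the gene fell in LKO mice. At A_66_P130115 the median moved from 0.11 to 0.44 in LWT mice (0.35, adjusted p = 0.0523) and from -0.24 to -0.78 in LKO mice (-0.50, adjusted p = 0.00716). The LKO groups there just overlapped, with -0.44 the lowest vehicle value and -0.42 the highest treated one. The LWT change was called without LWT vehicle mouse 3 (0.49, adjusted p = 0.00219) or LKO CL316243 mouse 6 (adjusted p = 0.0478). At the clone probe A_55_P2729398 the LKO median went from 1.07 to -0.54, a change of -2.37 (adjusted p = 0.00149) that was -1.67 (adjusted p = 1.49e-04) without LKO CL316243 mouse 3, where the probe read -4.80. The difference between the genotypes' responses was negative at all 5 probes. It was called at 3 of them, A_66_P130115 (-0.85, adjusted p = 0.0114), A_55_P2739989 (-0.77, adjusted p = 0.0360) and A_65_P20641 (-0.68, adjusted p = 0.0415), but not at the brightest (-0.39, adjusted p = 0.183). Leaving out 1 mouse kept the first of these calls in 24 of 24 fits. The call of A_55_P2739989 held in 14 of 24 and was lost without LWT vehicle mouse 1, 2, 4 or 5, LWT CL316243 mouse 4 or 5, LKO vehicle mouse 4 or 5, or LKO CL316243 mouse 4 or 5 (adjusted p 0.0532 to 0.0684). That of A_65_P20641 held in only 8 of 24, those without LWT vehicle mouse 3 or 6, LWT CL316243 mouse 3, LKO vehicle mouse 2, 3 or 6, or LKO CL316243 mouse 2 or 6, and reached an adjusted p of 0.0768 in the others. Without LKO CL316243 mouse 3, A_55_P2729398 was called too (-1.40, adjusted p = 0.0359). The 5 probes share a gene and a set of mice and are not replicates of each other.

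**Figure D2:**
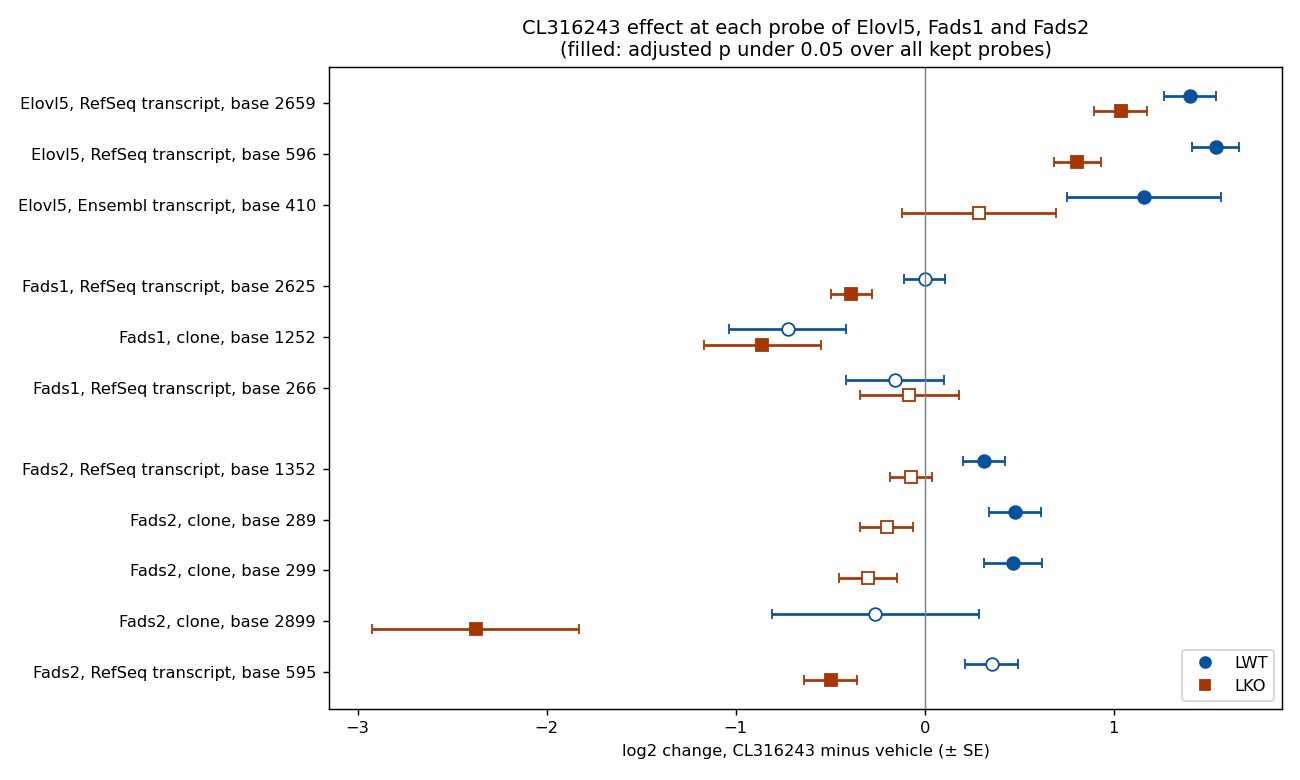
Change with CL316243 (log2, horizontal axis, with SE) at each kept probe of Elovl5, Fads1 and Fads2, in LWT (circles) and LKO mice (squares), labelled by the kind of transcript the probe was designed on and the base of it where the probe starts; filled symbols had an adjusted p under 0.05 over all 32037 kept probes. All 3 Elovl5 probes rose in LWT mice, and at the Fads2 probes the LKO change lies below the LWT change throughout, from -0.07 at the brightest probe to -2.37 at a clone probe.

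Fads1 encodes the desaturase that acts after ELOVL5. Its brightest probe (chr19:10270530-10270589, + strand, mm9) read 3.54, 3.76 and 4.19 (lowest, median, highest) in LWT mice with vehicle and 3.60, 3.72 and 4.08 with CL316243. In LKO mice it read 3.46, 3.64 and 3.84 with vehicle and 2.93, 3.32 and 3.43 with CL316243. Every treated LKO mouse was below every mouse of the other 3 groups, narrowly so against the vehicle-treated LKO mice. The LKO change was -0.39 ± 0.11 (adjusted p = 0.00626), against 0.00 ± 0.11 in LWT mice (adjusted p = 0.994). The difference between the 2 responses was -0.39 ± 0.15 and was not called (adjusted p = 0.158), although it was without LWT vehicle mouse 3 (-0.48, adjusted p = 0.0443). Under CL316243, Fads1 was lower in LKO than in LWT mice by -0.49 ± 0.11 (adjusted p = 0.00240). Without LKO CL316243 mouse 3, the LKO change was -0.32 (adjusted p = 0.0194) and the genotype difference -0.42 (adjusted p = 0.00587). The other Fads1 probes did not share this pattern: a clone probe gave -0.72 (adjusted p = 0.0704) in LWT and -0.86 (adjusted p = 0.0302) in LKO mice, the latter -0.49 without LKO CL316243 mouse 3 (adjusted p = 0.0571) and not called without LKO vehicle mouse 4 either (adjusted p = 0.0700). The LWT change of that probe was called without LWT CL316243 mouse 4 (adjusted p = 0.0316) or LKO CL316243 mouse 3 (adjusted p = 0.00377). A probe at base 266 of the RefSeq transcript gave -0.16 and -0.08, neither called; without LKO CL316243 mouse 1 the LKO change was -0.42 (adjusted p = 0.0185). With the mean of the 3 probes, neither the LKO fall (-0.44, adjusted p = 0.0704) nor the genotype difference under CL316243 (-0.37, adjusted p = 0.215) was called.

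Elovl2, which carries elongation on towards docosahexaenoic acid, differed by genotype and not by treatment. Its only probe (chr13:41277884-41277943, - strand, mm9) read 5.41, 5.51 and 5.86 in LWT vehicle mice, 5.24, 5.45 and 5.79 in LWT mice given CL316243, 4.72, 5.16 and 5.22 in LKO vehicle mice and 4.68, 5.07 and 5.39 in LKO mice given CL316243. The genotypes were apart under vehicle and overlapped under CL316243. The LKO level was lower by -0.51 ± 0.12 under vehicle (adjusted p = 0.0325) and by -0.41 ± 0.12 under CL316243 (adjusted p = 0.0193). Within slides the second difference ran from -0.74 to 0.05, with a sign turned on 1 slide, while the first ran from -0.71 to -0.27. The vehicle call was lost in 8 of 24 fits that left out 1 mouse (LWT vehicle mice 1, 2, 3, 5 and 6 and LKO vehicle mice 2, 3 and 4; adjusted p 0.0508 to 0.0964). The CL316243 call was lost without LWT CL316243 mouse 4 (adjusted p = 0.0516) or LKO CL316243 mouse 5 (adjusted p = 0.0579), and when only the groups compared were fitted (adjusted p = 0.0693). The vehicle call was also lost with median centring (adjusted p = 0.0929), without the filter on dim probes (adjusted p = 0.0830) and with a minimum change of 1.2-fold. The changes with treatment were -0.11 (95% confidence interval -0.36 to 0.13) in LWT and -0.02 (-0.27 to 0.23) in LKO mice.

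Fads3 is a relative of Fads1 and Fads2 in the same gene cluster, less well characterised than they are. In LWT mice its brightest probe (chr19:10132641-10132700, + strand, mm9) read -1.46, -1.30 and -0.93 with vehicle and -1.80, -1.64 and -1.28 with CL316243, and in LKO mice -1.36, -1.10 and -0.96 with vehicle and -1.93, -1.27 and -1.02 with CL316243. The groups overlapped in both genotypes. The LWT fall of -0.32 ± 0.13 only just passed (adjusted p = 0.0487) and was lost in 8 of 13 alternative analyses. It was also lost in 17 of the 24 fits without 1 mouse (adjusted p 0.0510 to 0.128), those without LWT vehicle mice 1 to 4, LWT CL316243 mice 2 to 5, LKO vehicle mice 1, 3, 4, 5 and 6, or LKO CL316243 mice 1, 4, 5 and 6. The LKO change was -0.24 ± 0.13 (adjusted p = 0.136). Under CL316243 the genotypes differed by 0.24 (adjusted p = 0.218), and by 0.36 without LKO CL316243 mouse 2, when it was called (adjusted p = 0.0273). A clone probe gave -0.17 in LWT and -0.23 in LKO mice, neither called, with 1 value missing.

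**Figure D3:**
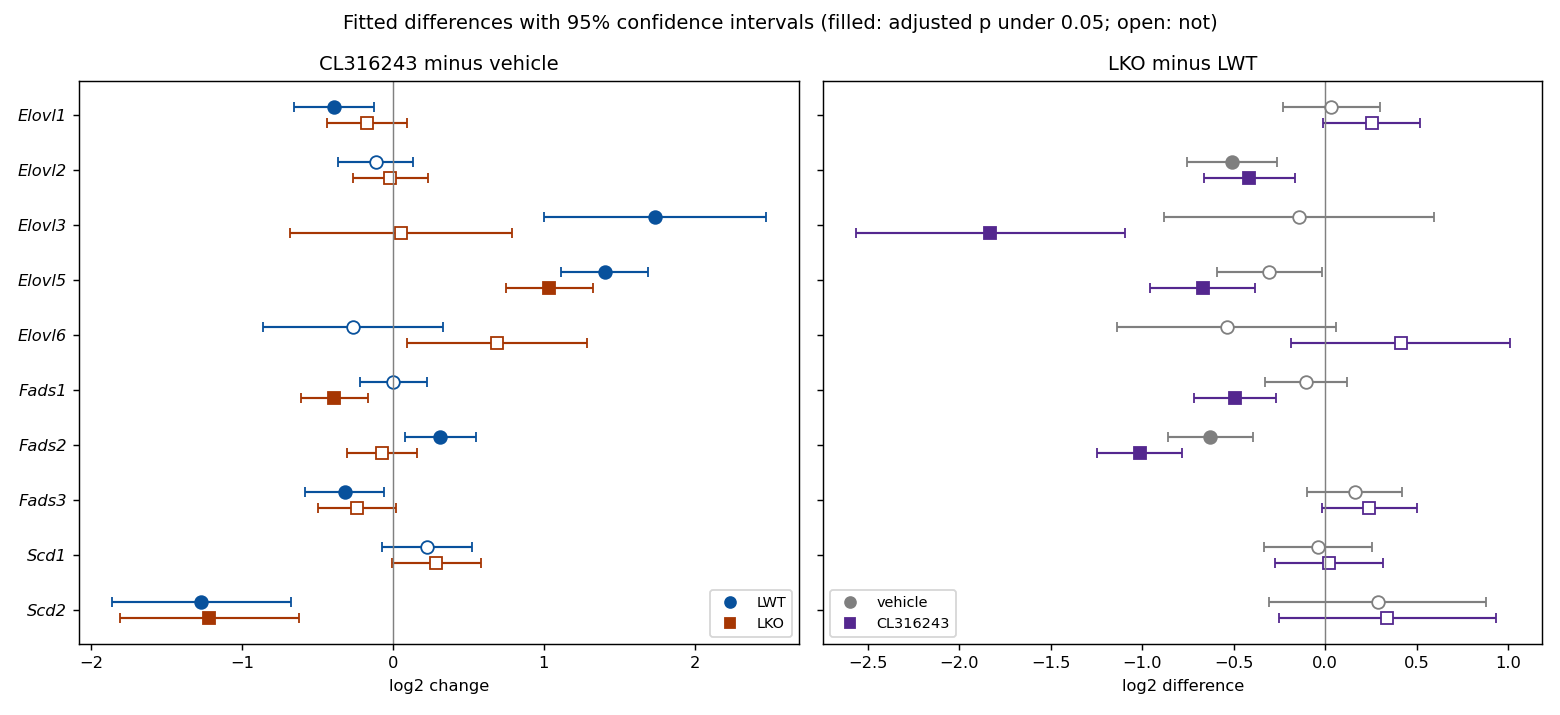
Fitted log2 differences with 95% confidence intervals for the 10 genes: CL316243 minus vehicle in LWT (circles) and LKO (squares) on the left, LKO minus LWT under vehicle (circles) and CL316243 (squares) on the right; filled symbols had an adjusted p under 0.05 over 21331 genes. Elovl3, Elovl5 and Scd2 lie farthest from 0 on the left, and the 7 filled symbols on the right all lie below 0.

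Elovl3 belongs to the saturated and monounsaturated branch and is best known from brown fat and skin. Its single probe (chr19:46209325-46209384, + strand, mm9) starts at base 1019 of the RefSeq transcript, and its first 30 bases are printed with those of Scd2, because these genes had the largest rise and the largest fall:
Elovl3 A_66_P123297: cctccgtggcactaagggtatgggagaatg
Scd2 A_51_P129464: acatttggggatcctctgcagaggagtatt
In LWT mice Elovl3 read 2.30, 2.73 and 3.37 with vehicle and 3.59, 4.70 and 4.97 with CL316243. LKO mice were far more spread under vehicle, 1.38, 2.41 and 4.13, and read 2.15, 2.70 and 3.37 with CL316243. No treated LWT mouse overlapped a vehicle-treated LWT mouse or a treated LKO mouse. The LWT rise was 1.74 ± 0.36 (adjusted p = 4.99e-04), and the LKO change was 0.05 with a 95% confidence interval of -0.69 to 0.79 (adjusted p = 0.926). Under CL316243 the LKO level was lower by -1.83 ± 0.36 (adjusted p = 7.70e-04), and under vehicle the difference was -0.14 (adjusted p = 0.997).

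The difference between the responses of Elovl3 was -1.69 ± 0.50 (95% confidence interval -2.73 to -0.65) and missed the threshold (adjusted p = 0.0513). It was called in 7 of 12 alternative analyses and in 7 of 24 fits without 1 mouse, those without LWT vehicle mice 2 or 5, LWT CL316243 mouse 3, LKO vehicle mice 1, 2 or 4, or LKO CL316243 mouse 6 (adjusted p 0.0158 to 0.0488). Without LKO CL316243 mouse 3 it was -1.57 (adjusted p = 0.0680). Its values within the 3 slides were -2.82, -0.52 and -1.72. The LKO change itself ran from -0.87 to 0.81 within slides, while the LWT rise ran from 1.33 to 1.96.

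Scd2 makes monounsaturated fatty acids and is, in the adult mouse, expressed chiefly outside the liver. Its probe (chr19:44381024-44381083, + strand, mm9, base 5122 of the RefSeq transcript) read -0.63, -0.28 and 0.63 in LWT vehicle mice and -1.59, -1.42 and -1.04 in LWT mice given CL316243. LKO mice read -0.24, 0.05 and 1.19 with vehicle and -2.26, -0.97 and -0.37 with CL316243. Treated and vehicle groups did not overlap in either genotype, as was true of 20.4% of all genes in LWT and 20.8% in LKO mice. The falls were -1.27 ± 0.29 in LWT (adjusted p = 0.00118) and -1.22 ± 0.29 in LKO mice (adjusted p = 0.00171). Without LKO CL316243 mouse 3, the LKO fall was -0.97 (adjusted p = 0.00409). The difference between the 2 falls was 0.05, with a 95% confidence interval of -0.78 to 0.89, so the data allow a difference of either sign.

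As these are bulk liver RNAs, a lower level through fewer cells of a type and through less RNA per cell cannot be told apart. Some marker genes of other cell types moved with the treatment, and not all in 1 direction. Of 6 neutrophil markers 4 or 5 were above background in each group, and their summed level (lowest, median, highest) was 1.04, 1.54 and 2.40 in LWT vehicle mice, 1.07, 2.93 and 3.68 with CL316243, 1.15, 1.28 and 1.76 in LKO vehicle mice and 2.22, 2.81 and 5.44 with CL316243. The markers did not move together: 2 of 5 tested were called higher and 2 lower in LWT mice, and 2 higher and 0 lower in LKO mice. Mean Ly6g went from -1.04 to -1.43 in LWT and from -0.97 to -1.24 in LKO mice, and mean Camp from -2.07 to -2.48 and from -2.10 to -2.09. Mean S100a8 went from -1.28 to 0.20 in LWT and from -1.51 to 0.78 in LKO mice and mean S100a9 from 0.76 to 2.20 and from 0.49 to 2.74, and Ngp was above background on at most 1 of 6 arrays in any group. Of 5 cholangiocyte markers 4 or 5 were above background. Their summed level had medians of 2.39 and 2.96 in LWT and 2.03 and 3.38 in LKO mice (vehicle, then CL316243). It ranged from 1.81 to 2.74 in LKO vehicle and 2.82 to 3.82 in LKO CL316243 mice. Not all of them rose: 1 was called higher in LWT and 2 in LKO mice, and 0 lower in either. In LWT mice mean Sox9 went from -0.82 to 0.65 and Spp1 from 2.06 to 2.52. There Krt19 went from -2.73 to -3.26, Krt7 from -4.44 to -4.46 and Epcam from -4.21 to -4.28. In LKO mice mean Krt7 went from -4.37 to -4.60 and the others were higher. All 6 stellate markers were measured, with medians of 5.88 and 6.14 in LWT and 5.98 and 6.18 in LKO mice. Of these, 2 were called higher and 1 lower in LWT mice, and 2 higher and 0 lower in LKO mice. Kupffer cell and endothelial markers had group medians of 5.70 to 5.91 and 5.33 to 5.43. Of 6 Kupffer cell markers 0 were called in either genotype. Single endothelial markers did move: of 6, 2 were called higher and 1 lower in LWT mice, and 1 each way in LKO mice. Mean Lyve1 went from -0.80 to 0.38 in LWT and from -1.69 to 0.70 in LKO mice. Mean Kdr went from 2.44 to 2.05 and from 2.46 to 1.90. Of 6 adipocyte markers 3 or 4 were measured, summing to between -0.55 and 0.83 over all mice, with Adipoq above background on 0, 1, 3 and 2 arrays and Ucp1 on 0, 0, 0 and 1 array of the groups in the order above. The part of these cells in the changes of Scd2, Elovl3 and Elovl5 was not tested.

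Scd1, chiefly an enzyme of oleate synthesis, passed no test. Its brightest probe (chr19:44469387-44469446, - strand, mm9) read 7.62, 8.15 and 8.56 in LWT vehicle mice, 8.05, 8.41 and 8.56 with CL316243, 7.59, 8.17 and 8.37 in LKO vehicle mice and 8.24, 8.37 and 8.66 with CL316243. All groups overlapped, and 3 of 6 treated LKO mice lay above the LKO vehicle range. The changes with CL316243 were 0.23 (95% confidence interval -0.07 to 0.52, adjusted p = 0.229) in LWT and 0.29 (-0.01 to 0.58, adjusted p = 0.116) in LKO mice. Their difference was 0.06 (-0.36 to 0.48). A further Scd1 probe on the opposite strand, designed on a cDNA clone, gave 0.18 and 0.33, neither called. Scd1 and Scd2 therefore had different outcomes of the same tests, and the difference between the 2 genes was not itself tested.

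Elovl6, the elongase of palmitate, had its largest response in LKO mice without passing the test. Its probe (chr3:129337756-129337815, + strand, mm9) read 4.49, 4.97 and 6.01 in LWT vehicle mice, 4.28, 4.89 and 5.22 with CL316243, 3.82, 4.44 and 5.51 in LKO vehicle mice and 4.82, 4.93 and 6.41 with CL316243. Each group but treated LWT had 1 mouse well above the rest. The LKO change was 0.69 ± 0.29 (adjusted p = 0.0608), the LWT change -0.26 ± 0.29 (adjusted p = 0.511), and the difference between them 0.95 ± 0.41 (adjusted p = 0.203). Within slides that difference was 0.92, 0.94 and 0.99. The LKO change was called without LWT vehicle mouse 5 (adjusted p = 0.0440) or LKO vehicle mouse 2 (0.88, adjusted p = 0.0155). It was smaller without LKO CL316243 mouse 1 (0.45, adjusted p = 0.171).

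Elovl1, an elongase of very long saturated chains, fell modestly in LWT mice. The lowest, median and highest levels of its brightest probe (chr4:118105163-118105222, + strand, mm9) were 4.89, 5.25 and 5.75 in LWT vehicle mice, 4.60, 4.83 and 5.29 with CL316243, 5.12, 5.23 and 5.63 in LKO vehicle mice and 4.85, 5.14 and 5.38 with CL316243. The groups overlapped, with 5 of 6 treated LWT mice below the vehicle mean. The LWT fall was -0.39 ± 0.13 (adjusted p = 0.0182), and -0.30 without LWT vehicle mouse 2, when it was not called (adjusted p = 0.0564). The LKO change was -0.17 ± 0.13 (adjusted p = 0.300). A second Elovl1 probe gave -0.34 (adjusted p = 0.0614) and -0.35 (adjusted p = 0.0518).

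RefSeq promoters were at hand for 6 of the 10 members, 8 promoters in all, in build GRCm38.p6. The 250 bases before the start site are shown for Elovl5, which rose in both genotypes, and Fads2, whose level differed by genotype, 5′ to 3′ along the gene. Elovl5 lies at chr9:77917115-77917364 (+ strand) and Fads2 at chr19:10101504-10101753 (- strand). Capitals mark matches to CACGTG, an E-box, and to CCAAT on either strand (ATTGG when read on the gene's strand).
Elovl5 promoter: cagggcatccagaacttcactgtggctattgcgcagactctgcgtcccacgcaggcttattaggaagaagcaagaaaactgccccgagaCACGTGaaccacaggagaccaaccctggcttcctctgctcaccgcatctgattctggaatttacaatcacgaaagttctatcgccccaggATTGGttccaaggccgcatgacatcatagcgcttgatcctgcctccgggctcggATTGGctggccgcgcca
Fads2 promoter: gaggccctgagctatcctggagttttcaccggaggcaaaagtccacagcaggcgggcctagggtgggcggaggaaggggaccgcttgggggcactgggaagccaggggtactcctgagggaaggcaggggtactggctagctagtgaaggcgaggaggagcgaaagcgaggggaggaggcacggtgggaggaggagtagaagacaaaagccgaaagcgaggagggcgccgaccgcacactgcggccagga
Of 32851 promoters of this length, 6.02% held CACGTG and 33.85% held CCAAT on either strand; among the members' 8 promoters it was 1 and 3. AGGTCA, a half-site of nuclear receptors, was in 14.02% of promoters and in 2 of the 8, belonging to Elovl1 and Elovl6. Its direct repeat with 1 base between, the form bound by PPARα with RXR, was in 0.03% of promoters and the sterol regulatory element of the LDL receptor gene in 0.07%, and neither was in the 8. In Fads2 none of the 5 motifs searched was found in this window. The searches covered both strands, AGGTCA is contained in its repeat, and a match is no evidence of binding.

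The enzymes that complete the elongation cycle were compared next, as a list of 6 genes tested. For this list and those that follow, 38.3% of all genes tested were called in LWT and 40.3% in LKO mice. In LWT mice 4 were called higher with CL316243 and 0 lower, with a median change of 0.55, and in LKO mice 2 higher and 1 lower, with a median of -0.00. Hacd3, a dehydratase of the cycle, rose from 6.74 ± 0.10 to 7.82 ± 0.15 in LWT mice (1.08, adjusted p = 1.61e-10) and fell from 6.27 ± 0.12 to 6.03 ± 0.07 in LKO mice (-0.23, adjusted p = 0.0120). Hsd17b12, the ketoacyl reductase, rose from 3.35 ± 0.11 to 4.02 ± 0.05 in LWT mice (0.67, adjusted p = 4.32e-08) and was 3.31 ± 0.12 and 3.33 ± 0.09 in LKO mice (0.02, adjusted p = 0.838). The responses of both genes differed between genotypes, by -1.31 for Hacd3 (adjusted p = 2.24e-08) and -0.65 for Hsd17b12 (adjusted p = 5.86e-05). Hacd1 and Hacd2, further dehydratases, rose in both genotypes, by 0.66 (adjusted p = 1.23e-05) and 0.45 (adjusted p = 1.06e-04) in LWT and, in LKO mice by 0.35 (adjusted p = 0.00538) and 0.41 (adjusted p = 3.08e-04). Tecr and Hacd4 were called in neither genotype.

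Docosahexaenoic acid synthesis ends with a round of peroxisomal shortening, and 7 genes of that step are reported here. In LWT mice, 6 of these were called higher and 1 lower, with a median change of 0.79. In LKO mice 1 of the 7 was called, lower, with a median of -0.23, and the difference in response was called for 5, all negative. Ehhadh, the peroxisomal bifunctional enzyme, rose by 3.98 in LWT mice (adjusted p = 3.35e-15) and fell by 0.80 in LKO mice (adjusted p = 8.42e-05). Acaa1b, a peroxisomal thiolase, rose by 1.35 in LWT mice (adjusted p = 1.58e-05) and had a change of -0.34 in LKO mice (adjusted p = 0.178).

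**Figure D4:**
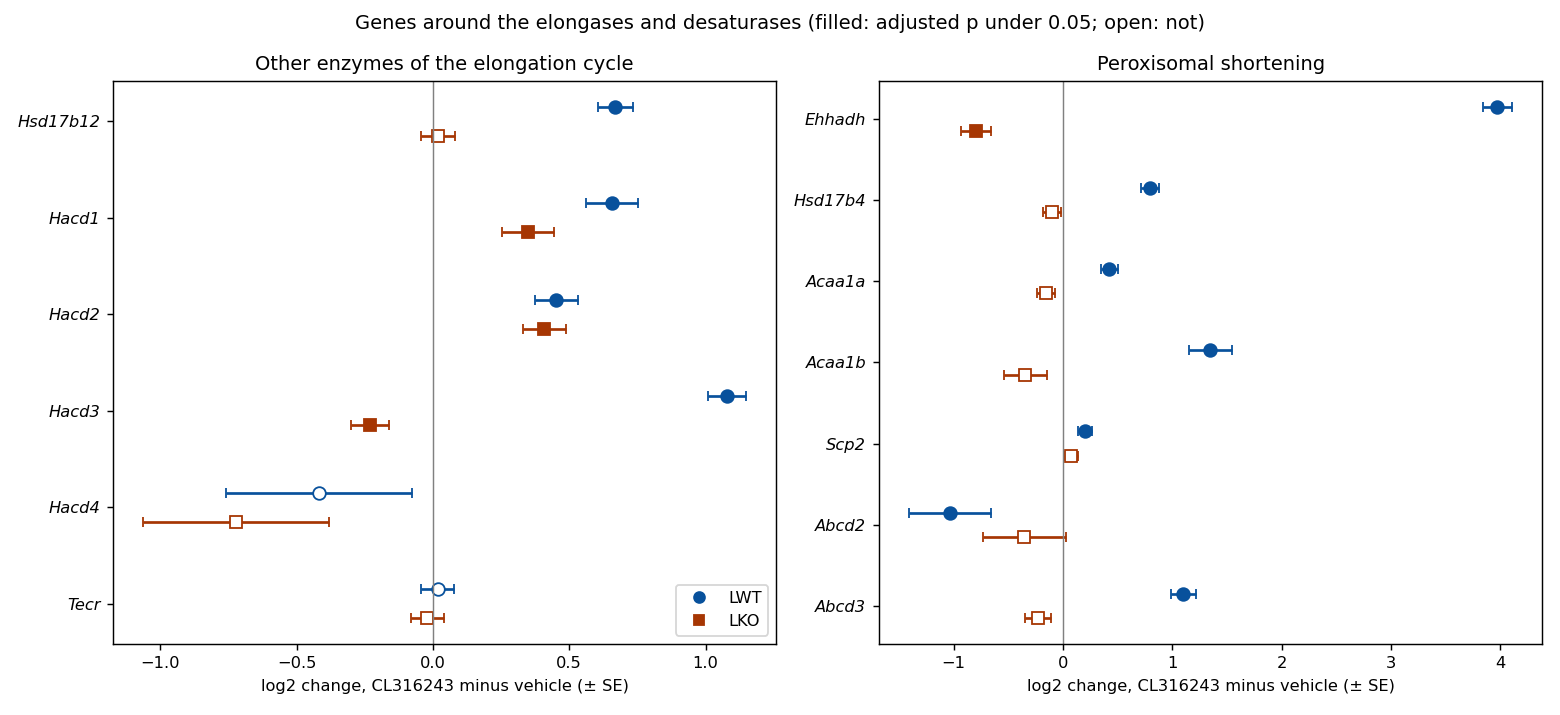
Change with CL316243 (log2, horizontal axis, with SE) of the 6 other enzymes of the elongation cycle (left) and 7 genes of peroxisomal shortening (right) in LWT (circles) and LKO mice (squares); filled symbols had an adjusted p under 0.05 over 21331 genes. Hacd3 and Hsd17b12 on the left and Ehhadh and Acaa1b on the right rose in LWT mice and did not rise in LKO mice, where Hacd3 and Ehhadh fell.

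The desaturases draw electrons from cytochrome b5 and its reductases. The 5 cytochrome b5 and reductase genes tested included a mitochondrial form, Cyb5b. Of these 5, 2 were called lower in LWT and 1 in LKO mice and 0 higher in either. Over all genes 38.3% and 40.3% were called. Cyb5a, Cyb5r3 and Cyb5r4 were called in neither genotype. With vehicle and then CL316243, mean Cyb5a was 8.71 and 8.71 in LWT and 8.90 and 8.74 in LKO mice. Mean Cyb5r3 was 7.28 and 7.10 in LWT and 7.30 and 7.20 in LKO mice. Cyb5b, the cytochrome b5 of the outer mitochondrial membrane, fell by 0.68 in LWT (adjusted p = 2.10e-04) and 0.64 in LKO mice (adjusted p = 4.01e-04). Cyb5r1, a reductase, fell by 0.52 in LWT mice (adjusted p = 0.0192).

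Of 6 genes that supply substrate for elongation, 2 were called higher and 1 lower in LWT mice, and 1 each way in LKO mice. Fasn, the fatty acid synthase, fell by 1.21 in LWT (adjusted p = 0.0128) and 1.06 in LKO mice (adjusted p = 0.0273). Me1, the malic enzyme that yields NADPH, rose by 1.2 in LWT (adjusted p = 0.0290) and by 1.2 in LKO mice (adjusted p = 0.0280).

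A further list held 13 transcription factors and SREBP pathway genes known to act on some of the members. In LWT mice 3 were called higher and 4 lower, and in LKO mice 4 higher and 6 lower. Srebf1, which encodes SREBP-1, moved from 6.82 ± 0.46 to 4.86 ± 0.52 in LWT mice and from 6.68 ± 0.29 to 3.46 ± 0.53 in LKO mice. Its falls of 1.96 (adjusted p = 3.34e-06) and 3.21 (adjusted p = 1.57e-08) differed by -1.25 (adjusted p = 0.0445). Insig2, which holds SREBP in the endoplasmic reticulum, rose by 2.99 in LWT (adjusted p = 3.92e-09) and 2.39 in LKO mice (adjusted p = 2.68e-07).

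The other Elovl, Fads and Scd genes on the array were Elovl4, Elovl7, Fads6, Scd3 and Scd4, of which 4 were tested. In each genotype 2 of the 4 were called lower with CL316243 and 0 higher. Fads6 changed by -0.30 in LWT (adjusted p = 0.00714) and -0.22 in LKO mice (adjusted p = 0.0356), and Scd4 by -0.37 (adjusted p = 0.00964) and -0.47 (adjusted p = 0.00162). Some Scd3 and Scd4 probes list accessions of further genes, Scd1's among those of an Scd3 probe, so their signal is uncertain. The longest run of bases that any member's probe shared with a probe of another gene of the family was 10. Probes were compared with probes and not with transcripts, so this cannot show whether a member's probe also binds a related RNA. The Scd3 probe that lists Scd1's accession had a longest run of only 8.

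Of the members, 4 had group means that spanned at least 1: Elovl3 (1.88), Elovl5 (1.71), Scd2 (1.56) and Fads2 (1.01). For each, the genes most like it were found among 14088 genes by the root-mean-square difference of centred log2 levels over the 24 mice. For Elovl3 they were St3gal5, a ganglioside sialyltransferase, at 0.54 and Arhgef3 at 0.55, with Elovl3's own SD over the mice at 0.98. For Elovl5 (SD 0.70) they were Tecpr2 and Mmadhc, both at 0.26. Etfb, a subunit of the electron transfer flavoprotein of fatty acid oxidation, and Dusp22 lay nearest to Fads2, both at 0.20 (SD 0.46). For Scd2 (SD 0.80) they were Ttc21b at 0.38 and Tsc22d3, a glucocorticoid-induced gene, at 0.39. These distances are descriptions over the same mice and were not tested.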

How the data were processed

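Liver RNA (200 ng per mouse) was labelled with Cy3 and hybridised to 24 single-colour arrays. Per the file headers, the scanner intensities of each spot were extracted by Agilent's software (Feature Extraction 10.10.1.1), and the processed signal used here is background-subtracted. The authors' deposited value matrix holds log2 values that the authors quantile-normalized, and served as an alternative. Groups came from the labels; all 24 mice entered, and 0 columns of it lacked a sample. The array annotation gives positions in mm9; exons and UTRs were not analysed here.

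Of 62976 spots, 59305 were not controls. Outlier spots were removed, log2 intensities lowered by each array's 75th percentile (397.4 to 577.7), and spots of a probe averaged. A probe entered if 4 or more of the 6 mice of some group read well above background and each group had 3 or more values (32037 of 56605). The brightest kept probe stood for a gene (21331 genes). limma 3.58.1 in R 4.3.3, with values read by data.table (version 1.17.8), fitted 4 group means, with 5 two-sided comparisons (prior df 2.17, residual df 20) and Benjamini-Hochberg adjustment within each. Further probes were tested over all kept probes. The script was tested on simulated data. Array number limits the precision; nothing in the labels says the mice were from separate litters or batches, so p-values measure the spread between these mice.

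All members and probes are named, as are Ppara, the 2 largest called changes per pathway list and genotype, and the 2 nearest genes of members spanning at least 1. Tecr, Hacd4, Cyb5a, Cyb5r3, Cyb5r4 and single marker genes were named after their values were seen. Results on 2 genes of the peroxisomal list are not reported here, and its counts and medians leave them out. Members and lists were chosen with earlier results of these data known. The alternatives were background correction, normalization, filter, probe choice, slide and replicate blocks, samples in the fit, a minimum change of 1.2-fold, and each mouse left out; leaving out mice at single probes was added after seeing the data.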

Additional observations from a re-analysis of the deposited data

Results flagged for a closer look

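In 84 groups of 6 mice (each kept probe in each group), 7 values stood farther from the rest than Dixon's limit allows, where chance alone flags about 1 group in 20. They were Elovl3 in LWT CL316243 mouse 3 (3.59, next 4.50), Fads1 in LWT vehicle mouse 3 (4.19, next 3.77) and Scd2 in LKO vehicle mouse 5 (1.19, next 0.08) at the brightest probes. At other probes they were Fads1 in LKO CL316243 mouse 3 (-1.91, next -0.04) and mouse 1 (-0.18, next -2.04, at a different probe), Fads2 in LKO CL316243 mouse 3 (-4.80, next -1.57) and Scd1 in LKO CL316243 mouse 1 (1.79, next 1.41). Mouse 3 of that group is the one whose array stood apart from its group as a whole.

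By the interaction term of limma, the effect of CL316243 was called different between LKO and LWT mice at 5 of 21 kept probes of members. Of all kept probes 5.96% were called, and tested over genes 0 of 10 members were. The term was also called for 6 other named genes. Apart from Ppara, the targeted gene, these were named for the largest called treatment changes of their lists in these same mice. A large response in a genotype was thus part of their choice, and their calls are not independent of it. One of the 5 probes was the only probe of Elovl3 (-1.69, adjusted p = 0.0477), whose adjusted p over genes was 0.0513. The other probes were A_55_P2522620 of Elovl5 (-0.73) and A_66_P130115 (-0.85), A_55_P2739989 (-0.77) and A_65_P20641 (-0.68) of Fads2, none of these 4 the brightest of its gene. Of 24 fits without 1 mouse, the Elovl3 call held in 7, that of A_55_P2739989 in 14 and that of A_65_P20641 in 8. The genes were Ehhadh (-4.77), Acaa1b (-1.69), Hacd3 (-1.31), Srebf1 (-1.25), Ppara (-1.23) and Hsd17b12 (-0.65).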

How the results depend on the processing

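No change of a member reversed where it was called. The count of members whose response differed between genotypes, 0 of 10, became 1 (Elovl3) with normexp background correction, median centring, the authors' series table, the filter at 6 of 6 arrays and every kept probe tested by itself, and 2 (with Fads2) with the mean of a gene's probes. The vehicle genotype count fell from 2 to 1 with median centring, without the dim-probe filter and with the mean of probes. It fell to 0 with a minimum change of 1.2-fold. That setting also lowered the LWT treatment count from 6 to 3 and the CL316243 genotype count from 5 to 2. In other alternatives the LWT treatment count fell as well: Fads2 kept its call in 8 of 13 and Fads3 in 5 of 13. Leaving out each mouse gave 4 to 6 (LWT treatment), 3 to 4 (LKO treatment), 0 to 1 (interaction), 1 to 2 (vehicle genotype) and 4 to 6 (CL316243 genotype). The number of all genes called moved too: for the interaction it was 1535 without LKO CL316243 mouse 3, against 1153 with all mice. For most settings that number is not given here, so the member counts do not show whether the members moved more than other genes. Without the filter, 7063 of 37074 genes were called for treatment in LWT mice and the median of all genes was 0.11, and 0.10 in LKO mice. With the mean of probes, Fads1 lost its LKO fall (-0.44, adjusted p = 0.0704) and Fads2 gained one (-0.69, adjusted p = 0.00342). Same-numbered mice did not all deviate together (median correlation 0.05 over 36 pairs, from -0.18 to 0.42), although 10 of 24 mice correlated best with their own number, which is a hint from the data and not from the design; with the replicate number as a block, 1 member was called for the interaction (Elovl3, adjusted p = 0.0293), Elovl6 was called in LKO mice (adjusted p = 0.0303), and 1217 genes were called for the interaction against 1153. The cause of these changes was not tested. Fewer genes called under a minimum fold follows from its construction.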
